A study of Mus musculus with 2 samples.

Results

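The genes described here are the microRNA genes Mir532, Mir188, Mir362, Mir501 and Mir500, which lie in an intron of the mouse gene Clcn5 on the X chromosome. They were chosen by name, as the rows whose Ensembl identifier carries one of 6 listed names in the GENCODE M21 annotation. Of the 6 names, 5 matched a row, among 2202 microRNA genes in all. Mir660 matched no gene name in that annotation and was not analysed here. The counts come from microRNA sequencing of whole hearts of female B6CASTF1/J mice, hybrids of a C57BL/6 and a CAST parent, taken 4 days after birth, with RNA under 30 nt selected. Both hearts belong to 1 group with no treatment named, and each gave 1 library, from animal 3 (replicate 1) and animal 4 (replicate 2). The labels give both hearts the same donor entry, so part of the spread between the libraries may be technical. No other tissue, age or sex was analysed here, and the data therefore show levels and the gap between the hearts, not an effect of a condition.

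A microRNA is cut from a hairpin-shaped precursor, and either arm of the hairpin can give a short mature strand. Bases 2 to 8 of the mature strand, the seed, pair with target transcripts, which are then repressed, so microRNAs with the same seed can share targets. MicroRNA genes that lie close together in an intron can be cut from 1 primary transcript, and their mature levels can still differ because processing and decay differ between hairpins. The host gene Clcn5 encodes a chloride and proton exchanger of endosomes, best known from the kidney, where its loss causes Dent disease. In muscle the cluster is known from miR-501, which has been studied in myogenic progenitor cells during regeneration. MiR-188 has been studied in the choice of marrow stromal cells between bone and fat, miR-532 and miR-362 mainly in tumours, and miR-500 in liver cancer and fetal liver.

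Clcn5 (ENSMUSG00000004317.14) spans positions 7153810 to 7319358 of chromosome X on the minus strand in mm10. All 5 hairpins lie on the same strand inside a single intron of 103648 nt (7213011 to 7316658). That intron is present in 3 of the 5 annotated Clcn5 transcripts, while the other 2 do not extend as far as the hairpins. Along the direction of transcription the order is Mir532, Mir188, Mir362, Mir501, Mir500, within 10815 nt. Mir532 begins 68161 nt into the intron, and Mir500 ends 24672 nt before the next exon. The hairpins are unevenly spaced. Mir532 and Mir188 are 345 nt apart, and Mir188 and Mir362 are 5942 nt apart. Mir362 and Mir501 are 630 nt apart, and Mir501 and Mir500 are 3468 nt apart. The hairpin sequences from RefSeq (GRCm38.p6, the same assembly as mm10) are shown because each count in the data belongs to a whole hairpin gene. Capitals mark the mature strands that the RefSeq table lists, and all 5 hairpins were identical to those of GENCODE M21.
Mir532 (chrX:7248402-7248497, minus strand): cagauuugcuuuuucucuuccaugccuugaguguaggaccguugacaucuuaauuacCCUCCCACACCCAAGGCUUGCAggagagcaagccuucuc
Mir188 (chrX:7247989-7248056, minus strand): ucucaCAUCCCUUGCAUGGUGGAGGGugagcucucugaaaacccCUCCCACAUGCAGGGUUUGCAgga
Mir362 (chrX:7241982-7242046, minus strand): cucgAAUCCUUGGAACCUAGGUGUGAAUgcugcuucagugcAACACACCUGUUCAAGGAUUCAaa
Mir501 (chrX:7241243-7241351, minus strand): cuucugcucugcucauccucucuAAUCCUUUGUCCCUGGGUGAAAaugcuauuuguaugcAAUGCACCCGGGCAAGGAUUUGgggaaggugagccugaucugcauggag
Mir500 (chrX:7237683-7237774, minus strand): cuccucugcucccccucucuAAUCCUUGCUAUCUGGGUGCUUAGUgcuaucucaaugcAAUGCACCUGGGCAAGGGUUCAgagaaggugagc

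The table held 9 mature sequences for these genes, both arms for 4 of them and the 3′ arm for Mir532. They carry 7 different seeds, shown in capitals below to let related strands be seen side by side. The table has no entry for a 5′ strand of Mir532, so the seed of that strand is not among the 7 and was not searched for. The 5′ arms of Mir362 and Mir500 share 1 seed, and the 3′ arms of Mir501 and Mir500 share another.
miR-362-5p: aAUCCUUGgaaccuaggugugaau
miR-500-5p: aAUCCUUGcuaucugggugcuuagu
miR-501-5p: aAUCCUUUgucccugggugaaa
miR-188-5p: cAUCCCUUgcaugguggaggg
miR-501-3p: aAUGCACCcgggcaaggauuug
miR-500-3p: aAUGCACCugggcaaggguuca
miR-362-3p: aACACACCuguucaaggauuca
miR-188-3p: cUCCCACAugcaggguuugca
miR-532-3p: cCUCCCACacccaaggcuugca
With positions counted from 1 at the 5′ end, miR-501-3p and miR-500-3p were identical at 18 of 22 positions, and the differences were C9U, A18G, U21C and G22A. The 5′ arms of Mir362 and Mir501 differed inside the seed only by G8U. The 3′ arms of Mir532 and Mir188 share the run CUCCCACA, which starts at position 2 of miR-532-3p and at position 1 of miR-188-3p, so their seeds are the same letters shifted by 1 base. The longest run of bases that a member hairpin shares with any other annotated microRNA gene was 11 nt for Mir362, 12 for Mir188, 13 for Mir532 and 14 for both Mir501 and Mir500, which share that run with each other. None of these runs reaches the length of the shortest listed mature strand, 21 nt. Reads that match several places are in no gene's count here, and matches elsewhere in the genome and CAST variants were not examined.

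All 5 genes were detected in both hearts, and their levels covered a range of more than an order of magnitude. Detection, meaning 10 or more counts in both libraries, held for 16.9% of the 2202 genes. Levels are given as CPM, counts scaled to a library total of 1000000, from the own-strand counts, 6417302 in replicate 1 and 5662222 in replicate 2. At this depth a count of 3, the floor for a gene at 0, corresponds to 0.467 and 0.530 CPM. In whole tissue, fewer cells of a type and less RNA per cell cannot be told apart. Together the 5 genes held 30007 counts (4676 CPM) in replicate 1 and 21664 counts (3826 CPM) in replicate 2. This was 0.425% ± 0.0601 of all counts (SD, n = 2) and 4.83% ± 0.471 of the counts on the X chromosome, where 36 of 142 microRNA genes were detected. The heart microRNAs inside myosin genes, Mir208a, Mir208b and Mir499, all lay above Mir532 in both libraries. For Mir499 in replicate 1 the gap was narrow, 2653 against 2467 CPM. A level above Mir532 is no test of the tissue label.

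Mir532, the first gene of the cluster, was its most abundant member, with 15834 counts (2467 CPM) in replicate 1 and 12287 counts (2170.0 CPM) in replicate 2. Its mean of 2319 ± 210.3 CPM (SD, n = 2) placed it 54th of the 2202 genes, and 6 other X-linked genes had a higher mean. Mir501, the fourth gene, followed with 8824 counts (1375 CPM) and 5861 counts (1035 CPM), a mean of 1205 ± 240.4 CPM and rank 69. These leading genes lie at the start and near the end of the cluster, with the less abundant Mir188 and Mir362 between them.

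Mir188, which lies 345 nt behind Mir532, had 2707 counts (422 CPM) in replicate 1 and 2053 counts (363 CPM) in replicate 2, a mean of 392 ± 41.9 CPM (SD, n = 2) and rank 110. Mir500, the last gene, had 2295 counts (358 CPM) and 1097 counts (194 CPM), a mean of 276 ± 116 CPM and rank 126. Mir362, 630 nt before Mir501, had the fewest, 347 counts (54.1 CPM) and 366 counts (64.6 CPM), a mean of 59.4 ± 7.47 CPM and rank 200. Mir362 was the 1 member below the median of the 373 detected genes, which was 75.2 CPM, and also the 1 member whose CPM was higher in replicate 2.

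The order Mir532, Mir501, Mir188, Mir500, Mir362 was the same in both hearts. No pair of neighbours in this order overlapped between the libraries, but the gap between Mir188 and Mir500 was narrow: the lower Mir188 value was 363 CPM and the higher Mir500 value was 358 CPM. That pair was also the one closest in level in replicate 1, where Mir188 had 1.18 times the counts of Mir500, against 1.87 times in replicate 2. A microRNA read usually covers a whole mature strand, so counts were not divided by length. Per 100 nt of hairpin the order was again the same in both libraries, from 2570.2 and 2260.4 CPM for Mir532 to 83.2 and 99.4 CPM for Mir362. Read counts therefore did not follow position: the genes in places 1 to 5 along the transcript ranked 1, 3, 5, 2 and 4 by level. Whether the libraries capture the strands of the 5 hairpins equally well was not tested, so these ranks describe counts.

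**Figure D1:**
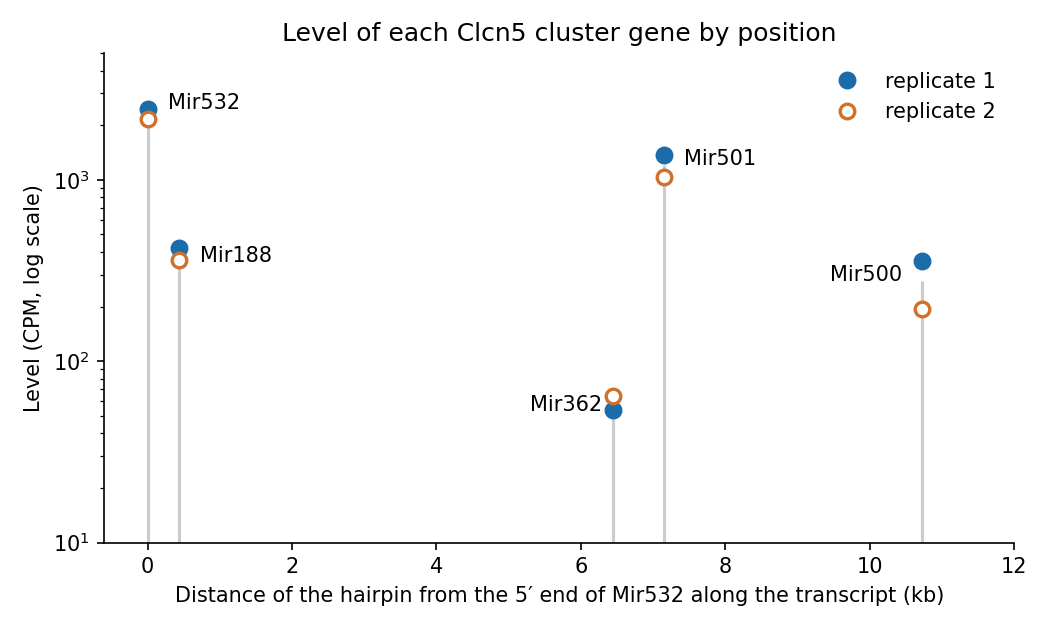
Level in CPM (log axis) of each cluster gene against the distance of its hairpin from the 5′ end of Mir532 along the transcript; filled points are replicate 1, open points replicate 2, and grey lines run up to the mean. Mir362 and Mir501 lie 630 nt apart at 59.4 and 1205 CPM, the steepest step between neighbours in the cluster.

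Ratios between neighbouring genes do not depend on how a library is scaled. The closest pair, Mir532 and Mir188, kept nearly the same ratio in both hearts, with 5.85 times as many Mir532 as Mir188 counts in replicate 1 and 5.98 times in replicate 2. The share of Mir532 in the pair was 85.4% in replicate 1 (exact 95% interval, Clopper-Pearson, 84.9 to 85.9) and in replicate 2 it was 85.7% (85.1 to 86.3), a difference not detectable at this depth. These intervals, like all intervals given here, cover counting error only, since reads without molecular identifiers are not independent molecules. Across the 5942-nt gap, Mir188 had 7.80 times the counts of Mir362 in replicate 1 and 5.61 times in replicate 2. Mir362, only 630 nt before Mir501, made up 3.78% of that pair's counts in replicate 1 (3.40 to 4.19) and 5.88% in replicate 2 (5.31 to 6.49). Mir501 had 3.84 times the counts of Mir500 in replicate 1 and 5.34 times in replicate 2, with both arms of each hairpin counted together. The ratio that moved most between neighbours in level was that of Mir500 to Mir362, 6.61 in replicate 1 and 3.00 in replicate 2.

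As shares of the cluster, Mir532 accounted for 52.8% in replicate 1 (exact 95% interval 52.2 to 53.3) and for 56.7% in replicate 2 (56.1 to 57.4). Mir501 held 29.4% (28.9 to 29.9) and 27.1% (26.5 to 27.7). These shares place most of the cluster's reads on 2 hairpins in both hearts. Mir188 held 9.02% (8.70 to 9.35) and 9.48% (9.09 to 9.87), the 1 member whose intervals overlapped. Mir500 held 7.65% (7.35 to 7.95) and 5.06% (4.78 to 5.36), and Mir362 held 1.16% (1.04 to 1.28) and 1.69% (1.52 to 1.87). The intervals of the other 4 genes were apart, so their shares differed between the libraries by more than counting error. Such gaps were common: in the exact binomial test below, 47.0% of the 491 genes tested had an adjusted p under 0.05. The shares are parts of 1 whole, so they do not vary independently. Over both hearts the shares were 54.7% ± 2.79 for Mir532, 28.2% ± 1.66 for Mir501, 9.25% ± 0.322 for Mir188, 6.36% ± 1.83 for Mir500 and 1.42% ± 0.377 for Mir362 (SD, n = 2).

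**Figure D2:**
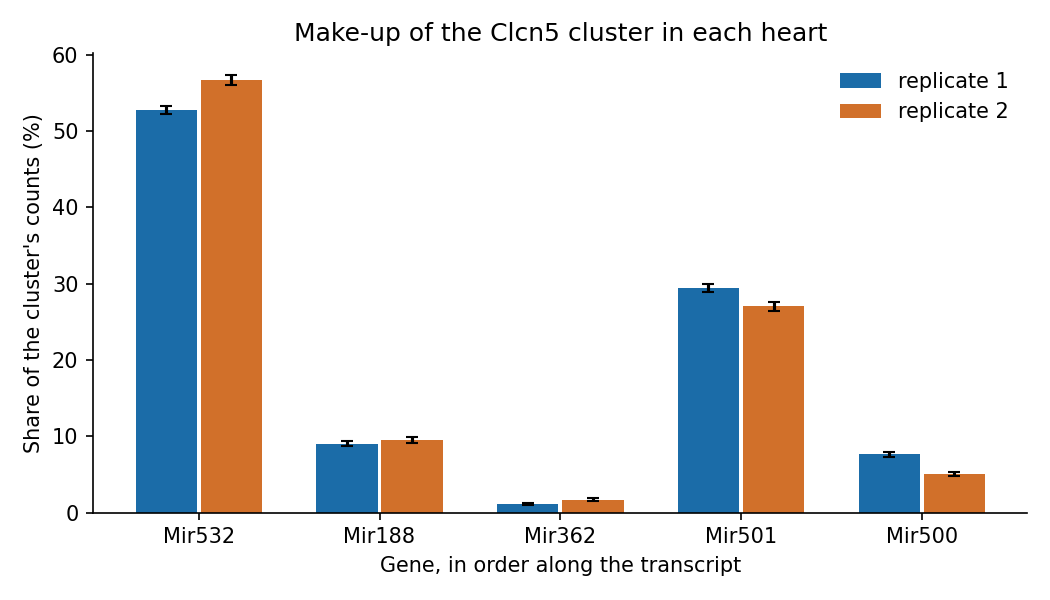
Share of the cluster's counts (%) held by each gene, in order along the transcript, with replicate 1 in blue and replicate 2 in orange; error bars are 95% Clopper-Pearson intervals. Mir532 leads in both hearts at 52.8% and 56.7%, and Mir500 holds 7.65% in replicate 1 and 5.06% in replicate 2.

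None of the 5 genes was called different between the hearts, where a call needs an adjusted p under 0.05 and a gap over 2-fold in an exact binomial test, conditional on each gene's sum, after TMM scaling (edgeR's trimmed mean). By the same rule 11.2% of the 491 genes tested were called, 19 higher in replicate 1 and 36 higher in replicate 2. This test compares 2 libraries and takes counting noise as the only noise, so its p-values do not reflect the spread between hearts. By the p-value alone, 4 of the 5 members had an adjusted p under 0.05, as did 47.0% of all genes tested, and 5 of 5 had an unadjusted p under 0.05, as did 50.1%. Every gap among the members was under 2-fold. With a dispersion estimated from both libraries (a biological coefficient of variation of 0.353), edgeR's exact test called 4 genes of 491 and no member. No member had an unadjusted p under 0.05 in it. That dispersion takes in the same differences that are tested, so this outcome cannot show that the members are alike in both hearts.

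Mir500 had the largest ratio of replicate 1 over replicate 2 in the cluster, 0.58 on the log2 scale (counting SE 0.05). Mir501, whose 3′ strand has the same seed, stood at 0.11 (counting SE 0.02). Mir532 stood at -0.12 (counting SE 0.02), Mir188 at -0.08 (counting SE 0.04) and Mir362 at -0.56 (counting SE 0.11). Mir500 and Mir362 thus lay on opposite sides of the other members, each within 2-fold. The median absolute log2 ratio over all 491 tested genes was 0.43, against 0.12 over the 5 members, which describes the genes and is not a test. The tested genes include many with few counts, so the medians are not matched for level. Of the tested genes, 310 had a smaller absolute log2 ratio than Mir500.

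The scaling moves these ratios together. Scaled by total counts instead of TMM, all log2 ratios rose by 0.30 and the median of all tested genes stood at 0.31. Mir532 then had a ratio of 0.19 and Mir188 of 0.22, on the other side of 0, by this common shift. Because every gene moves by the same amount, the side of each member relative to the median gene, at 0.01 under TMM, cannot change. Mir500 (0.88 under total counts) and Mir501 (0.41) lay above it, and Mir532, Mir188 and Mir362 (-0.26) lay below it. Of the calls over all genes, 34.5% were higher in replicate 1 under TMM and 63.9% under total counts. The sum of the 5 genes had a log2 ratio of -0.01 under TMM and 0.29 under total counts. It lay close to the median gene, a distance that the scaling does not alter.

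**Figure D3:**
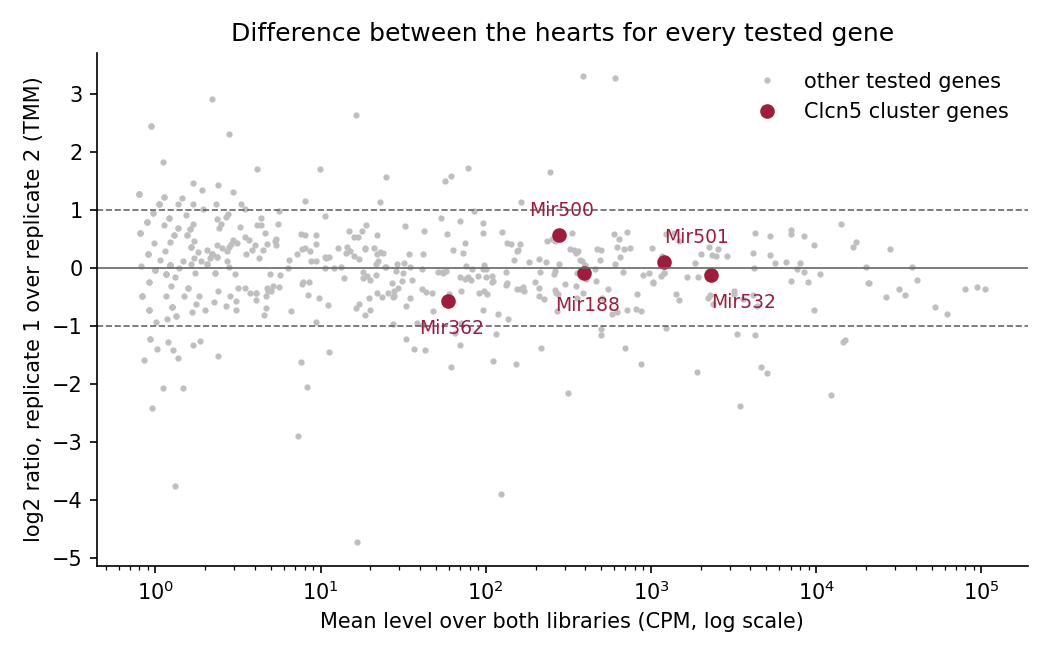
The log2 ratio of replicate 1 over replicate 2, scaled by TMM, against the mean level in CPM (log axis) for the 491 genes tested; cluster genes are in red, and dashed lines mark 2-fold. The 5 cluster genes lie between -0.56 and 0.58, inside the dashed lines.

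Of 17 marker genes of heart muscle and of other cell types, 15 could be tested and 8 were called different between these hearts. The same rule called 11.2% of the 491 genes tested. Mir206, a skeletal muscle gene, had 4607 and 331 counts in replicates 1 and 2. The endothelial Mir126a had 51829 and 73011 CPM, and the liver gene Mir122 had 105 and 86.2 CPM. Of the cardiac muscle genes, Mir499 had fewer counts in replicate 1 (17027 and 42393), while Mir208a (69837 and 34080) and Mir208b (47853 and 31937) had more. Summed, the cardiac markers held 20993 and 19146 CPM, the blood markers 812 and 362 CPM, the epithelial markers 448 and 374 CPM and the smooth muscle markers 47055 and 60331 CPM. Members of a sum differed in direction. Among the blood markers, Mir223 had more CPM in replicate 2 (83.1 and 148), while Mir451a, Mir144 and Mir142 had more in replicate 1. Among the epithelial markers, Mir200b (27.0 and 58.5 CPM) and Mir205 (1.40 and 31.8 CPM) had more in replicate 2, while Mir200c (420.1 and 284 CPM) had more in replicate 1. Of the neuronal markers, Mir124a-1 had no count in either library and Mir9-2 had 3 and 0. The part of these differences in the make-up of the Clcn5 cluster was not tested.

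In the RefSeq table, 2 genes outside the cluster had a mature strand with the seed of a member. Mir329, of the imprinted Dlk1-Dio3 region, has the seed of miR-362-3p in its 3′ strand, shown here with the seed in capitals for comparison with the strand of Mir362 above.
miR-329-3p: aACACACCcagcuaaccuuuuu
Mir329 had 561 counts (87.4 CPM) in replicate 1 and 540 counts (95.4 CPM) in replicate 2. Mir362 had fewer in both, 347 and 366 counts, although these counts cover both arms of each hairpin and not the strand with the shared seed alone. Mir7061 shares the seed of miR-188-5p and had 7 and 4 counts, against 2707 and 2053 for Mir188. No other gene in the table shared the seeds of the Mir501, Mir500 or Mir532 strands listed above.

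By level alone, the genes nearest to Mir532 were Mir15b (2387 ± 362 CPM, SD, n = 2) and Mir181d (2356 ± 609 CPM) above it and Mir542 (2266 ± 168 CPM) and Mir483 (2245 ± 715 CPM) below it. All 4 overlap Mir532 in their range over the libraries, so these 5 genes have no fixed order. With 2 libraries no pattern across samples can be compared.

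Uneven levels were also found inside other microRNA clusters. The spread within a cluster is given as its highest over its lowest detected gene. In the Clcn5 cluster, Mir532 over Mir362 was 45.6-fold in replicate 1 and 33.6-fold in replicate 2. In the X-linked cluster led by Mir322, 5 of 7 listed names matched and all 5 were detected. Among these 5, Mir322 over Mir450b was 56.1-fold and 75.3-fold. Mir450-1 (mean 32.9 CPM) and Mir450-2 (mean 8.66 CPM) carry no listed name and were not included. Both lay below Mir450b (mean 410 CPM), so the folds given hold for the 5 matched genes and may leave out the lowest genes of that cluster. Mir322 had a mean of 26636 CPM, so the spread would be far wider with Mir450-1 and Mir450-2 counted. In the cluster from Mir17 to Mir92-1, known from proliferating cells, Mir17 over Mir18 was 17.3-fold in replicate 1 and 7.84-fold in replicate 2. In its X-linked relative from Mir106a to Mir363, Mir92-2 over Mir363 was 24.0-fold and 17.1-fold. In those last clusters 4 of 6 genes were detected, so these folds leave out their lowest genes. With all genes of the Mir17 cluster counted, Mir17 over Mir19a (10 counts) was 4113-fold in replicate 1. In replicate 2 the lowest gene was Mir19b-1 (8 counts), and Mir17 over Mir19b-1 was 3442-fold. Both folds are wider than the spread in the Clcn5 cluster. The genes left out of the Mir106a cluster were Mir18b (2 and 5 counts) and Mir19b-2 (4 and 0 counts), against 479 and 188 counts for Mir92-2. In these clusters Mir92-1, Mir92-2, Mir19b-1 and Mir19b-2 share runs of 22 or 25 nt with another microRNA gene, so their counts lack reads that match several genes. The leading gene held 52.8% and 56.7% of the Clcn5 cluster. Mir322 held 50.5% and 53.7% of the counts of its 5 matched genes. Mir17 held 52.5% and 50.1% of its cluster and Mir92-2 held 77.6% and 64.8%, with no test made.

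**Figure D4:**
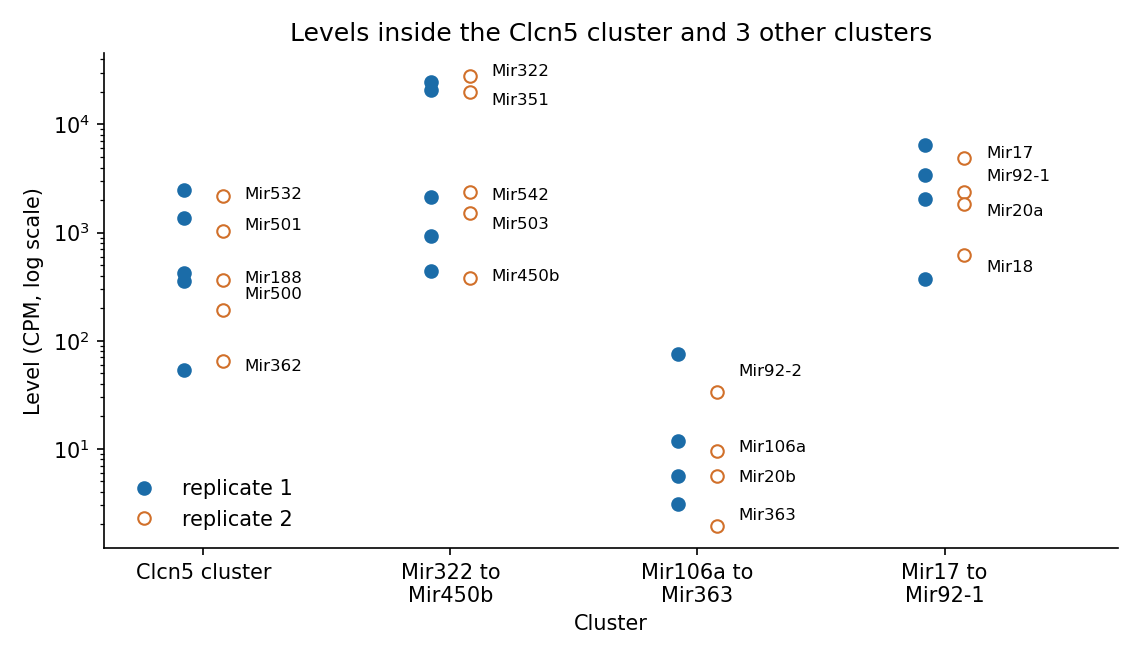
Level in CPM (log axis) of every detected gene with a matched name in the Clcn5 cluster and 3 other clusters. Filled points are replicate 1 and open points replicate 2. The Clcn5 genes run from 2319 CPM (Mir532) to 59.4 CPM (Mir362) by their means, and Mir532 lies below Mir322 and Mir17 and above Mir92-2, the leading genes of the other clusters.

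The strand of the reads was uniform. No member had a single count on the opposite strand in either library, and the column that ignores strand gave the same counts as the own-strand column for all 5 genes.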

How the data were processed

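MicroRNA libraries of 2 hearts, replicates 1 and 2 per the labels, form 1 group. For each library the authors deposited a table of raw counts by microRNA gene, and the accompanying descriptions name mm10 and GENCODE M21. How reads were trimmed, aligned and counted is not given in the sources used here. The own-strand column of 3 was used. Library sizes exclude the 4 summary entries, which put multi-mapped reads at 39.6% and 43.2% and reads outside microRNA genes at 4.12% and 3.38% of 14450527 and 13495259 reads. All 2202 identifiers matched M21.

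Levels are CPM on own-strand totals. Genes with at least 10 counts in the sum were tested between the libraries with an exact binomial test, two-sided and conditional on the sum (TMM factors 1.11 and 0.900, edgeR 4.0.16, R 4.3.3; scipy 1.17.1) and Benjamini-Hochberg adjustment across all genes tested, with 0.5 added to each count in log2 ratios. Alternatives were total-count and DESeq2 1.42.0 scaling, other filters, the both-strand column, edgeR's exact test and leaving out each library. Shares carry exact 95% intervals. Named genes are the members, the 2 genes above and 2 below the leading member in mean CPM, genes sharing a seed, and highest and lowest matched genes of 3 other clusters. Cell type markers named were read from a fixed list. The members and lists were chosen with earlier results of these data known.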

Additional observations from a re-analysis of the deposited data

How the results depend on the processing

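Leaving out either library leaves the other alone, so it repeats the order of the 5 genes within each heart and is no separate check. The column that ignores strand has smaller library totals, which raised the mean levels, with the counts themselves unchanged. They were 2894 CPM for Mir532, 489.5 CPM for Mir188, 74.2 CPM for Mir362, 1503 CPM for Mir501, 343 CPM for Mir500 and 5304 CPM for the sum. Scaled to all reads in a file, multi-mapped and unmapped reads included, the levels were 1003 for Mir532, 169.7 for Mir188, 25.6 for Mir362, 522 for Mir501, 120.1 for Mir500 and 1841 for the sum. Dividing by hairpin length, an alternative chosen after seeing the data, brought Mir532 over Mir362 from 39.6-fold to 26.8-fold on average. The number of genes called different was 55, and edgeR's exact test with an estimated dispersion gave 4. The log2 ratios of Mir532 and Mir188 changed sign under total counts (0.19 and 0.22), which moved every gene by 0.30. Their place below the median gene could not change by this. Shares and ratios between members were the same in both count columns. With 2 libraries, an SD rests on 1 difference.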
